A study of Mus musculus with 6 samples.

Results

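The 9 genes described here encode receptors, binding proteins and enzymes of retinoic acid signalling: Rara, Rarb, Rarg, Crabp1, Crabp2, Aldh1a1, Aldh1a2, Aldh1a3 and Cyp26b1. They were taken by symbol from the 46983 genes of the count files, and all 9 were found. RNA sequencing was done on mouse embryonic fibroblasts, connective tissue cells cultured from embryos, in 3 libraries labelled SphK2 null and 3 labelled wild type. Both groups came from C57BL/6 embryos aged 14 days, were at passage 16 and were grown in DMEM medium containing 10% fetal bovine serum with antibiotics, pyruvate and non-essential amino acids. No retinoid or other treatment is named in the labels. SphK2 is sphingosine kinase 2, which makes the lipid signal sphingosine-1-phosphate, and the study compared fibroblasts with and without it in the setting of breast tumour stroma. Whether replicates were separate embryos or cultures is not stated in the labels, so p-values measure only how far these libraries scatter, and that scatter may be technical.

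Retinoic acid is made from vitamin A: retinol is oxidised to retinal and retinal to retinoic acid. The ALDH1A enzymes oxidise retinal, the CRABP proteins bind retinoic acid in the cell, and the CYP26 enzymes break it down. Retinoic acid acts through the nuclear receptors RARα, RARβ and RARγ, which bind DNA as heterodimers with RXR receptors at retinoic acid response elements, often direct repeats of the core motif AGGTCA or a close variant. Several genes of the pathway, among them Rarb, Crabp2, Dhrs3 and the CYP26 genes, are themselves known targets of the receptors. In the embryo the pathway patterns the body axis and limbs, and mesenchymal cells are among those that respond to it.

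The targeted gene went against its label. Sphk2 had 964, 883 and 921 counts in the null-labelled libraries, against 654, 418 and 503 in the wild-type-labelled libraries, with a log2 fold change (null over wild type label, as throughout) of 0.87 ± 0.051 (SE, edgeR adjusted p = 4.48e-64). Each count covers every annotated exon, and the extent of the deletion is not given in the sources used here. Every direction below is therefore between labels. Total counts ran from 16804841 to 19148434 in the null-labelled and from 15598566 to 23681718 in the wild-type-labelled libraries. All 12 fibroblast markers of a list were lower in the null-labelled libraries, with a summed level of 3361 to 3396 CPM (counts scaled to library size), against 14765 to 15241 CPM in the wild-type-labelled libraries. Their median log2 fold change was -7.79. Thy1, a surface antigen of fibroblasts, had 0 counts in each null-labelled library, while Vim, the filament protein vimentin, stood at 3211 ± 17.9 CPM in null-labelled and 5622 ± 115 CPM in wild-type-labelled libraries (SD, n = 3 each). Vim differed least of the 12 (log2 fold change -0.81 ± 0.019 SE) and made up most of the null-labelled sum. The sums therefore understate how far most of these markers differed.

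Markers of other cell types went in both directions within most lists. The epithelial list summed to 383 to 410 CPM in null-labelled and 107 to 110.0 CPM in wild-type-labelled libraries, almost all of it Krt8, which rose, while its keratin partner Krt18 fell (16 counts in null-labelled and 69 in wild-type-labelled libraries, edgeR adjusted p = 4.65e-08) and Epcam and Cdh1 were below 1 CPM in every library. The trophoblast list summed to 19.9 to 20.6 CPM in null-labelled and 1.18 to 2.09 CPM in wild-type-labelled libraries, through Hand1, which rose. Eomes, the other trophoblast marker tested, fell (6 counts in null-labelled and 55 in wild-type-labelled libraries, edgeR adjusted p = 2.75e-10). Gata3 had 6 counts in null-labelled and 38 in wild-type-labelled libraries and was not tested, and Cdx2 and Prl3d1 were at 0.

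The pluripotent list summed to 0.480 to 0.973 CPM in null-labelled and 112 to 113 CPM in wild-type-labelled libraries, through Sox2, which is also a neural marker, with Zfp42 and Dppa5a at 0. The neural list summed to 436 to 461 CPM in null-labelled and 426 to 434 CPM in wild-type-labelled libraries, where Nes rose, Sox2 and Map2 fell and the median log2 fold change of the 4 tested was -3.62. The endoderm list summed to 3.54 to 3.97 CPM in null-labelled and 2.98 to 3.87 CPM in wild-type-labelled libraries, where Gata4 rose (112 counts in null-labelled and 3 in wild-type-labelled libraries) and Gata6 (1 and 49 counts in that order) and Afp fell. The endothelial list summed to 2.51 to 3.41 CPM in null-labelled and 1.59 to 2.30 CPM in wild-type-labelled libraries, where Pecam1 rose and Cdh5 fell. The haematopoietic list summed to 7.94 to 8.32 CPM in null-labelled and 18.8 to 20.7 CPM in wild-type-labelled libraries, where Csf1r rose and Cd14 and Cd68 fell. In bulk RNA, fewer cells of a type and less RNA per cell cannot be told apart, and the part of these marker differences in the results below was not tested.

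Promoter bases are shown for 3 of the genes: Rarb, because its promoter is known for a retinoic acid response element, and Cyp26b1 and Crabp1, the members that differed most in each direction. They are from RefSeq on GRCm38.p6 and run 5′ to 3′ on the strand of the gene. For Rarb, at chr14:16575477-16575726 on the minus strand, capitals mark a repeat of GTTCA with 6 free bases between the copies. For Cyp26b1, at chr6:84593909-84594060 on the minus strand, capitals mark TATAAA, the TATA box motif. For Crabp1, at chr9:54764498-54764747 on the plus strand, capitals mark GGGCGG on either strand, the GC box motif bound by Sp1.
Rarb: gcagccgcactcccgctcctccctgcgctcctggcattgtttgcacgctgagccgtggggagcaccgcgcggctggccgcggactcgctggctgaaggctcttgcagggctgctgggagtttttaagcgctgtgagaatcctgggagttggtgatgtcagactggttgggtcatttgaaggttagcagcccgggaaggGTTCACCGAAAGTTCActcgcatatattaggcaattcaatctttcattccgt
Cyp26b1: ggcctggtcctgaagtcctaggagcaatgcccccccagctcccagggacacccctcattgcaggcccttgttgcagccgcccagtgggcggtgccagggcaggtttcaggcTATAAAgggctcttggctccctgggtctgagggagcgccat
Crabp1: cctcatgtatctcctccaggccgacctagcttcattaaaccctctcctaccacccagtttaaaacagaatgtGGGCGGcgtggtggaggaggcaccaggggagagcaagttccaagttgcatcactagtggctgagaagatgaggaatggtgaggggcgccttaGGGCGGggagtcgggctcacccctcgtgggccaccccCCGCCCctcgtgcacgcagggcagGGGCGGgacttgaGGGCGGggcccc

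The table of promoters held 12 start sites of 7 of the 9 genes, all but Crabp2 and Aldh1a3, and the motifs were searched on both strands in the 250 bases before each start. The repeat of GTTCA with 6 bases between stood 52 bases before the start of Rarb and before no other start of the members. This pattern was written from the known element of Rarb, so its match there was fixed in advance and is no finding. It was found before 22 of 32851 mouse gene starts (0.067%). The same stretch was the only match among the members to a direct repeat of the receptors' consensus motif spaced by 5 bases, which 0.0883% of the starts had. AGGTCA itself, in 14.0% of all starts, was found at 1 of the 12 member starts, that of Rarg. TATAAA, in 12.4% of all starts, was found before Cyp26b1 only. GGGCGG, in 32.7% of all starts, occurred 5 times before Crabp1, 3 times before Cyp26b1, and also before starts of Rara and Rarg. The starts searched are those of RefSeq. For Cyp26b1 this is chr6:84593810, inside the gene span given below, and the printed bases end before that span. The match 34 bases before this start is therefore not printed. The RefSeq starts of Rara also lie inside its gene span. A match describes the letters of these windows and does not show that a factor binds there.

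**Figure D1:**
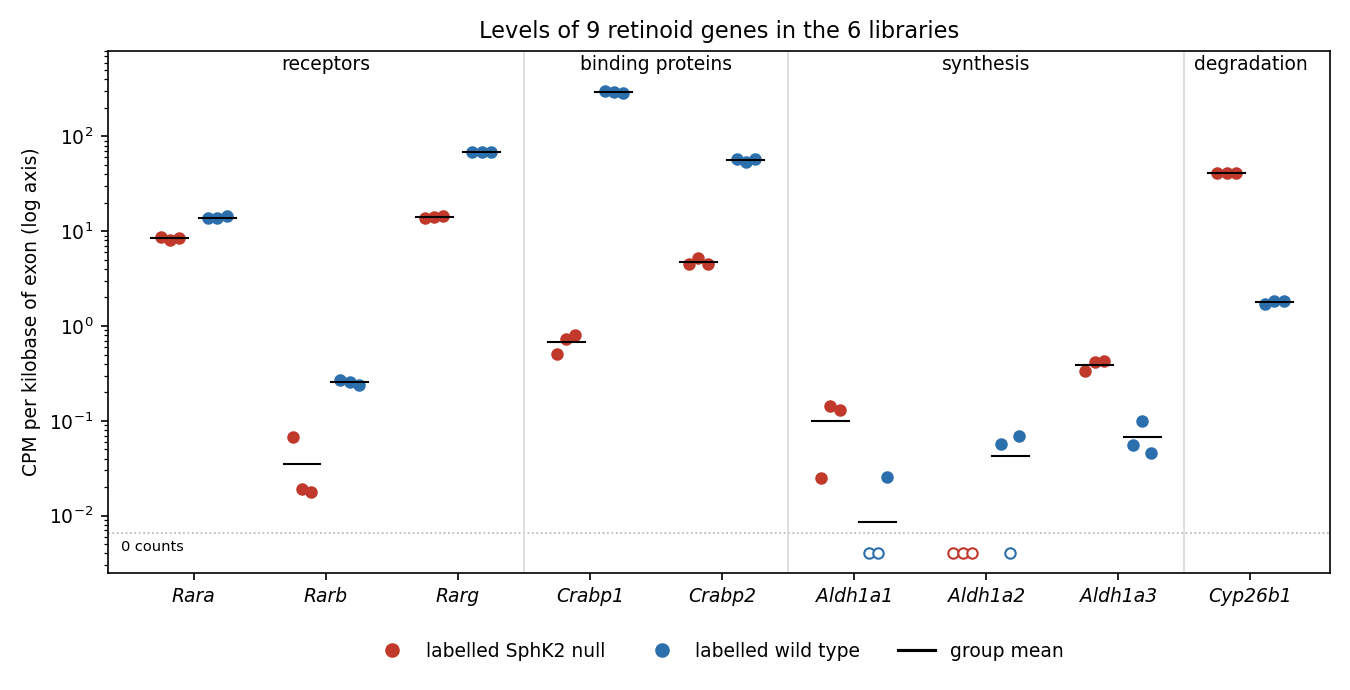
Levels of the 9 genes in each library, as CPM per kilobase of exon on a log axis, with null-labelled libraries (red) left of wild-type-labelled libraries (blue), a black line at the group mean and open points for libraries without a count. Receptors and binding proteins lie lower in the null-labelled libraries, Cyp26b1 lies higher at 41.0 against 1.80, and the ALDH1A genes lie near the bottom of the scale in both groups.

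The 3 receptor genes all had lower levels in the null-labelled libraries; so were 41.1% of all 15199 genes tested (edgeR adjusted p under 0.05). Rarg, the receptor γ, was the most abundant of them in both groups. It stood at 56.7, 58.2 and 59.7 CPM in null-labelled libraries and at 278, 284 and 279 CPM in wild-type-labelled libraries, means of 58.2 ± 1.52 and 280.2 ± 2.93 CPM (SD, n = 3 each). The groups did not come near each other. The log2 fold change was -2.27 ± 0.032 (SE), a 4.81-fold lower level, and edgeR returned an adjusted p of 0, below what the program can store. Rarg (ENSMUSG00000001288) spans chr15:102234938-102257517 on the minus strand (mm10, as are the gene positions that follow).

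Rara, the receptor α, which is expressed in most tissues, differed least of the tested members. It had 37.6, 35.5 and 37.0 CPM in null-labelled libraries against 60.3, 59.7 and 62.5 CPM in wild-type-labelled libraries. These groups did not overlap either. The log2 fold change was -0.73 ± 0.046 (SE, edgeR adjusted p = 8.44e-55), a 1.66-fold lower level. Among all genes tested, 65.3% had a smaller absolute log2 fold change than Rara. Rara (ENSMUSG00000037992) spans chr11:98927818-98974942 on the plus strand.

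Rarb, the receptor β and a classical target of retinoic acid through an element of its promoter, was scarce in both groups. Its counts were 4, 1 and 1 in the null-labelled libraries and 19, 12 and 14 in the wild-type-labelled libraries. Each null-labelled library was below each wild-type-labelled library, at means of 0.106 ± 0.086 and 0.779 ± 0.043 CPM (SD, n = 3 each). The log2 fold change was -2.78 ± 0.50 (SE, edgeR adjusted p = 4.85e-08), and the ratio of summed counts, 7.21-fold lower, had a 95% counting interval of 3.07 to 20.7. Without null-labelled replicate 1, which holds 4 of the 6 counts of its group, the log2 fold change was -3.66. Rarb (ENSMUSG00000017491) spans chr14:16430842-16575472 on the minus strand.

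Per length, the receptor pool was smaller in the null-labelled libraries and its make-up differed. The 3 genes summed to 22.6 ± 0.378 CPM per kilobase in null-labelled and 82.4 ± 0.577 CPM per kilobase in wild-type-labelled libraries (SD, n = 3 each). Rarg made up 62.7 ± 1.13% of this sum in null-labelled and 82.8 ± 0.428% in wild-type-labelled libraries, and Rara 37.2 ± 1.01% and 16.9 ± 0.439% in that order. Rarb was under 1% in both groups. Lengths are the union of all annotated exons, so genes with long alternative exons are understated on this scale.

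The partner receptors were measured alongside. Rxra stood at 112 ± 1.33 CPM in null-labelled and 101 ± 2.51 CPM in wild-type-labelled libraries (log2 fold change 0.15 ± 0.034 SE, edgeR adjusted p = 1.25e-05). Rxrb stood at 104 ± 2.32 CPM in null-labelled and 71.0 ± 0.723 CPM in wild-type-labelled libraries (0.56 ± 0.037 SE, edgeR adjusted p = 4.06e-50). Both rose, and Rxrg had 0 counts in all 6 libraries. The ratio of summed RAR to summed RXR levels per length was 0.463 ± 0.011 in null-labelled and 2.19 ± 0.026 in wild-type-labelled libraries (SD, n = 3 each). RAR transcripts were thus the fewer of the pair in each null-labelled library and the more abundant in each wild-type-labelled library.

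**Figure D2:**
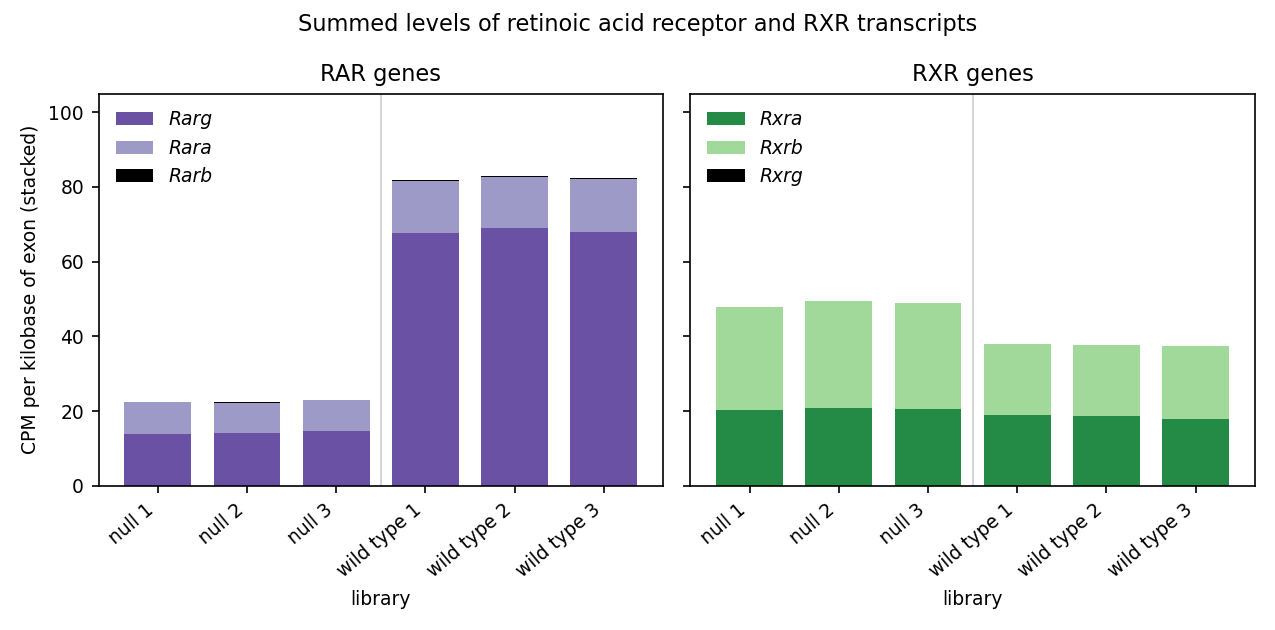
Stacked levels of the RAR genes (left) and RXR genes (right) in each library, in CPM per kilobase of exon, null-labelled libraries first. The RAR stacks reach 22.3 to 23.0 in null-labelled and 81.8 to 82.9 in wild-type-labelled libraries, while the RXR stacks reach 47.9 to 49.5 and 37.4 to 37.9 in the same order.

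Both genes for cellular retinoic acid binding proteins were lower in the null-labelled libraries, and Crabp1 had the largest difference of the 9. Crabp1 binds retinoic acid in the cytosol and is known as a marker of subsets of embryonic mesenchyme and dermal fibroblasts. It had 8, 10 and 12 counts in the null-labelled libraries, against 5608, 3563 and 4428 in the wild-type-labelled libraries. The levels were 0.545 ± 0.120 and 236 ± 4.98 CPM in that order (SD, n = 3 each). The log2 fold change was -8.75 ± 0.077 (SE, edgeR adjusted p of 0), a 430-fold lower level, and 98.9% of all genes tested had a smaller absolute change. Crabp1 (ENSMUSG00000032291) spans chr9:54764748-54773110 on the plus strand.

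Crabp2, which carries retinoic acid to the receptors in the nucleus, kept more of its transcripts. It stood at 5.89, 6.89 and 5.97 CPM in null-labelled libraries and at 75.5, 71.8 and 76.3 CPM in wild-type-labelled libraries. Every null-labelled library was below every wild-type-labelled one. The log2 fold change was -3.58 ± 0.065 (SE, edgeR adjusted p of 0), a 12.0-fold lower level. Per length, Crabp2 made up 87.5 ± 2.37% of the summed CRABP level in null-labelled and 16.1 ± 0.489% in wild-type-labelled libraries (SD, n = 3 each). The more abundant of the pair was thus Crabp2 in each null-labelled library and Crabp1 in each wild-type-labelled library. Crabp2 (ENSMUSG00000004885) spans chr3:87948666-87953376 on the plus strand.

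By the distance between log2 CPM profiles over the 6 libraries, each centred on its own mean, the genes closest to Crabp1 were Gpr149, Peg10 and Gas1. Their distances were 0.340, 0.352 and 0.376. With only 2 conditions, this likeness mostly reflects a similar fold change. Gas1 stood at 0.400 CPM in null-labelled and 193 CPM in wild-type-labelled libraries, and Peg10, an imprinted gene, at 0.965 and 397 CPM in that order.

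The genes of retinoic acid synthesis had low counts in both groups. Aldh1a3 was the highest of them, and higher in the null-labelled libraries. It had 30, 33 and 37 counts there, against 6, 7 and 4 in the wild-type-labelled libraries. The levels were 1.81 ± 0.239 CPM in null-labelled and 0.309 ± 0.132 CPM in wild-type-labelled libraries (SD, n = 3 each), without overlap, with a log2 fold change of 2.58 ± 0.33 (SE, edgeR adjusted p = 1.07e-14). Aldh1a3 (ENSMUSG00000015134) spans chr7:66390892-66427517 on the minus strand.

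Aldh1a1 and Aldh1a2 had too few counts to enter the test. Aldh1a1, abundant in adult liver, had 1, 5 and 5 counts in the null-labelled libraries and 0, 0 and 1 in the wild-type-labelled libraries. The ratio of summed counts, 11.4 for null over wild type label, had a 95% counting interval of 1.66 to 492, and the null-labelled library with 1 count was level with the wild-type-labelled library with 1 count. Aldh1a1 has a close paralogue in the mouse, Aldh1a7, which had 0 counts in null-labelled and 4 in wild-type-labelled libraries, and reads shared by such copies can be lost from both.

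Aldh1a2, the main enzyme of retinoic acid synthesis in the early embryo, had 0 counts in each null-labelled library and 3, 0 and 3 in the wild-type-labelled libraries. A count of 0 allows up to 3 counts, or 0.157 to 0.179 CPM of the library total in null-labelled libraries. The groups overlapped at 0, and no fold is given. The 95% counting interval of the ratio of summed counts, null over wild type label, ran from 0 to 0.883, and a fit without the filter on low counts called Aldh1a2 lower (edgeR adjusted p = 0.0362), on 6 counts in all. Aldh1a1 (ENSMUSG00000053279) spans chr19:20601961-20643462 on the plus strand and Aldh1a2 (ENSMUSG00000013584) spans chr9:71215789-71296243 on the same strand.

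Cyp26b1, a hydroxylase that inactivates retinoic acid and is itself induced by it, was the member with the largest gain. It had 4253, 3767 and 4136 counts in the null-labelled libraries, against 212, 151 and 189 in the wild-type-labelled libraries. The levels were 219 ± 1.38 CPM in null-labelled and 9.64 ± 0.451 CPM in wild-type-labelled libraries (SD, n = 3 each). The log2 fold change was 4.52 ± 0.047 (SE, edgeR adjusted p of 0), a 22.9-fold higher level, and 92.1% of all genes tested had a smaller absolute change. Cyp26b1 (ENSMUSG00000063415) spans chr6:84571414-84593908 on the minus strand.

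The sister hydroxylases had low counts in both groups. Cyp26a1, the form most often used as a readout of retinoic acid, had 0, 3 and 2 counts in null-labelled and 3, 6 and 3 in wild-type-labelled libraries. Cyp26c1 had 2, 2 and 1 counts in null-labelled and 16, 10 and 6 in wild-type-labelled libraries. Neither passed the filter on low counts. The groups overlapped for Cyp26a1 and did not for Cyp26c1. A fit without that filter called Cyp26c1 lower (log2 fold change -2.56 ± 0.60 SE, edgeR adjusted p = 6.30e-05). It did not call Cyp26a1 (-1.18 ± 0.79 SE, edgeR adjusted p = 0.239). Per length, Cyp26b1 exceeded the sum of the 3 ALDH1A genes 73.4- to 114-fold in null-labelled and 13.2- to 18.6-fold in wild-type-labelled libraries. The ALDH1A sums rest on few counts, in wild-type-labelled replicate 2 only the 7 of Aldh1a3, so these ratios are imprecise.

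Within a group, the order of levels per length changed. In the null-labelled libraries it ran Cyp26b1, Rarg, Rara, Crabp2, Crabp1, Aldh1a3, Aldh1a1, Rarb and Aldh1a2, where Aldh1a1 and Rarb were not separated by their libraries. In the wild-type-labelled libraries it ran Crabp1, Rarg, Crabp2, Rara, Cyp26b1, Rarb, Aldh1a3, Aldh1a2 and Aldh1a1, where the last 3 were not separated. Crabp1 stood at 0.679 ± 0.150 CPM per kilobase in null-labelled and 294 ± 6.21 CPM per kilobase in wild-type-labelled libraries, and Cyp26b1 at 41.0 ± 0.258 and 1.80 ± 0.084 CPM per kilobase in that order (SD, n = 3 each). Only Rarg kept its place, the second of 9, in both groups.

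Differences of this kind were common in these data. Of the 7 members that passed the filter on low counts, 2 were higher and 5 lower at an edgeR adjusted p under 0.05, where 79.2% of all 15199 genes tested were called, 38.1% higher and 41.1% lower. By over 2-fold, 2 members were higher and 4 lower, where 26.2% of all genes were called by that much, 10.4% higher and 15.8% lower. In all 7 the groups did not overlap, as in 79.9% of all genes tested, 38.6% with the null-labelled libraries above and 41.4% with them below. Rarb, Crabp1 and Aldh1a3 entered the test through the group in which they were higher, so the 7 are not a sample of the 9. The median log2 fold change was -2.27 over the 7 and -0.02 over all genes tested.

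**Figure D3:**
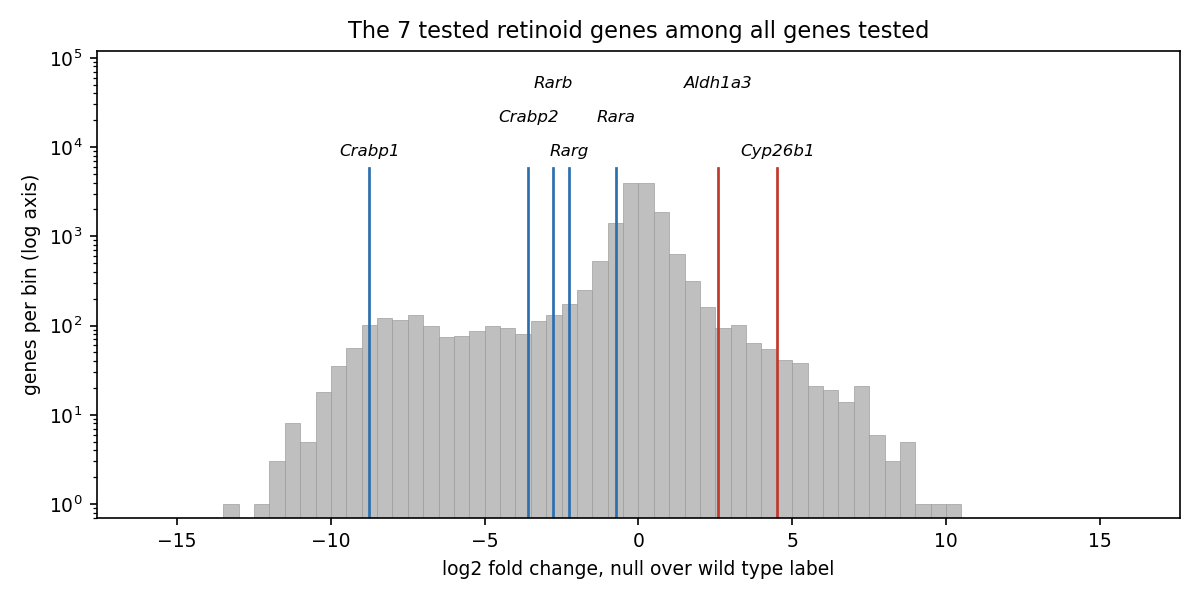
Number of genes per 0.5 of log2 fold change over all 15199 genes tested, on a log axis, with lines at the 7 tested retinoid genes (blue lower, red higher in null-labelled libraries). Crabp1 lies at -8.75 within a broad shoulder of strongly lower genes, and Cyp26b1 at 4.52 in the thinner upper tail.

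The other genes of the retinoid pathway, 58 in all, went in both directions. Of the 44 that passed the filter, 20 had higher and 19 had lower levels under the null label (edgeR adjusted p under 0.05). Over all 15199 genes tested, 38.1% were higher and 41.1% lower, which is also the background for the counts by list below. Their median log2 fold change was -0.04, and 4 genes had no count in any library.

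Of 8 genes for retinol carriers and uptake, 5 were higher and 2 lower, with a median log2 fold change of 4.11 over the 7 tested. Rbp4, which carries retinol in the blood, stood at 35.5 ± 1.24 CPM in null-labelled and 1.69 ± 0.525 CPM in wild-type-labelled libraries (SD, n = 3 each), a log2 fold change of 4.35 ± 0.10 (SE). Stra6, the membrane receptor for the complex of RBP4 and retinol, stood at 6.19 ± 0.572 CPM in null-labelled and 2.11 ± 0.136 CPM in wild-type-labelled libraries (1.55 ± 0.16 SE). Rbp7, a cellular retinol binding protein of adipose tissue, had 81, 68 and 64 counts in null-labelled and 4, 1 and 3 in wild-type-labelled libraries. The largest edgeR adjusted p of these 3 genes was 4.87e-23. Rbp2, 1 of the 2 lower genes, had 0, 1 and 0 counts in null-labelled and 71, 66 and 58 in wild-type-labelled libraries (edgeR adjusted p = 3.08e-50).

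Of 13 retinol and retinal dehydrogenases and reductases, 5 were higher, 6 lower and 2 too scarce to test. Rdh10, the main retinol dehydrogenase of the embryo, stood at 14.1 ± 1.10 CPM in null-labelled and 44.8 ± 0.733 CPM in wild-type-labelled libraries (log2 fold change -1.67 ± 0.061 SE). Dhrs3, a retinal reductase induced by retinoic acid, stood at 3.34 ± 0.347 CPM in null-labelled and 16.2 ± 0.860 CPM in wild-type-labelled libraries (-2.28 ± 0.11 SE). Adh7, an alcohol dehydrogenase that can oxidise retinol, stood at 2.15 ± 0.466 CPM in null-labelled and 113 ± 3.20 CPM in wild-type-labelled libraries (-5.72 ± 0.074 SE). Rdh14 was 2.03-fold lower. The largest edgeR adjusted p of these 4 genes was 5.45e-46. Of 5 genes of storage and carotenoid cleavage, Retsat, a retinol saturase, rose (0.81 ± 0.042 SE) and Dgat1, an acyltransferase that can esterify retinol, rose slightly (0.26 ± 0.062 SE, edgeR adjusted p = 3.10e-05), while Lrat, the main retinol esterifying enzyme, had 0 counts in all 6 libraries. Of the exonic bases of Retsat, 18.4% are shared with an antisense gene, and reads over them are not counted.

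Fabp5, a lipid binding protein that can pass retinoic acid to the receptor PPARδ, had 1, 0 and 3 counts in null-labelled and 439, 359 and 466 in wild-type-labelled libraries, a log2 fold change of -8.13 ± 0.21 (SE, edgeR adjusted p = 1.58e-302). Without null-labelled replicate 3, which holds 3 of the 4 counts, the log2 fold change was -9.34. Ppard itself stood at 54.5 ± 1.71 CPM in null-labelled and 55.6 ± 2.06 CPM in wild-type-labelled libraries, with a log2 fold change of -0.03 ± 0.044 (SE, edgeR adjusted p = 0.535).

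All coregulators but Ncoa1 differed by less than 2-fold. Of 10, 5 were higher and 4 lower, with a median log2 fold change of 0.06. Ncoa1, a coactivator of nuclear receptors, had the largest difference, at 102 ± 2.80 CPM in null-labelled and 43.7 ± 0.424 CPM in wild-type-labelled libraries (1.22 ± 0.041 SE, edgeR adjusted p = 4.30e-192). The coactivator Ncoa3 (0.46 ± 0.034 SE) and the acetyltransferase Ep300 (0.37 ± 0.026 SE) rose, and the related acetyltransferase Crebbp fell (-0.56 ± 0.040 SE). The corepressor Ncor1 stood at 331 ± 3.57 CPM in null-labelled and 315 ± 6.03 CPM in wild-type-labelled libraries (SD, n = 3 each). The call of Ncor1 was lost without wild-type-labelled replicate 3 (edgeR adjusted p = 0.0890) and also under another of the alternatives. That of Nrip1, a corepressor of nuclear receptors, was lost without wild-type-labelled replicate 1 (edgeR adjusted p = 0.0643).

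Of a list of 20 known retinoic acid targets, which includes 5 genes also counted above and no member, 2 were higher, 9 lower and 3 not called, and 6 were too scarce to test. The median log2 fold change of those tested was -1.40. Tgm2, the tissue transglutaminase, stood at 73.2 ± 1.44 CPM in null-labelled and 7.62 ± 0.888 CPM in wild-type-labelled libraries (log2 fold change 3.28 ± 0.062 SE). Of its exonic bases, 21.8% are shared with other genes and not counted. Hoxa5, a HOX gene with response elements for retinoic acid, had 0, 1 and 0 counts in null-labelled and 297, 190 and 242 in wild-type-labelled libraries, a ratio of 701 (wild type over null label) with a 95% counting interval of 125 to 27737. Among genes known to be induced by retinoic acid, Cyp26b1, Tgm2 and Stra6 were thus higher in the null-labelled libraries, while Rarb, Crabp2, Dhrs3 and Hoxa5 were lower.

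**Figure D4:**
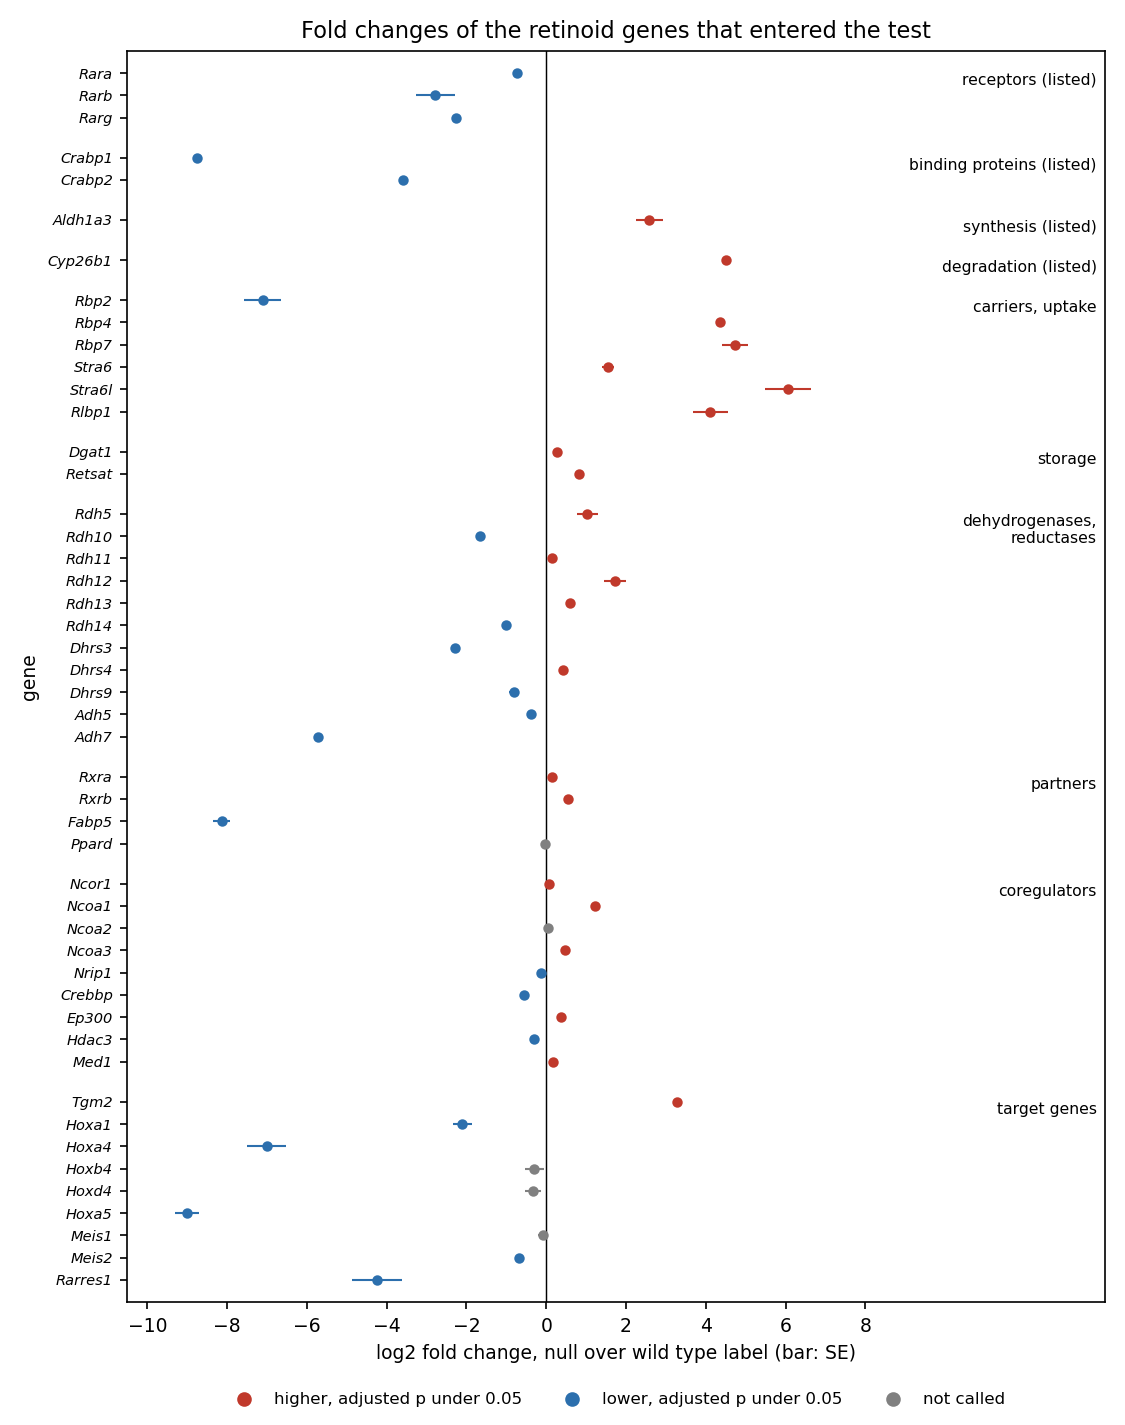
Log2 fold changes (null over wild type label, bars are SE) of the retinoid genes reported here that entered the test, by role, with the 7 tested members at the top. Red marks genes called higher in null-labelled libraries, blue lower and grey not called; fitted values of genes with 1 to 4 counts in a group, such as Hoxa5, depend on the prior count.

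The genes around the members varied. Within 500000 bases of the start of Cyp26b1, the 2 other tested genes had log2 fold changes of 0.12 and 0.29. Around Crabp1, 11 tested genes had a median of -0.25, and its nearest tested neighbour, Wdr61, stood at -0.64 ± 0.047 (SE). Some farther genes of that stretch differed more than Wdr61, with Gldn at -8.10 ± 0.71, Hykk at -4.13 ± 0.43 and Dnaja4 at -3.58 ± 0.41 (SE). Dmxl2 stood at 3.22 ± 0.14 and Acsbg1 at -0.75 ± 0.13 (SE). Others, Idh3a, Ireb2, Psma4, Ube2q2 and Fbxo22, differed less, at -0.25 to 0.23. Around Crabp2, 22 tested genes had a median of 0.09, and around Rarg, 28 tested genes had a median of -0.45. Of these 28, 19 were lower, where 41.1% of all genes tested were lower. In the cluster of alcohol dehydrogenases on chromosome 3, Adh7 differed 52.9-fold, while Adh5, 225333 bases away, was 1.31-fold lower.

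**Figure D5:**
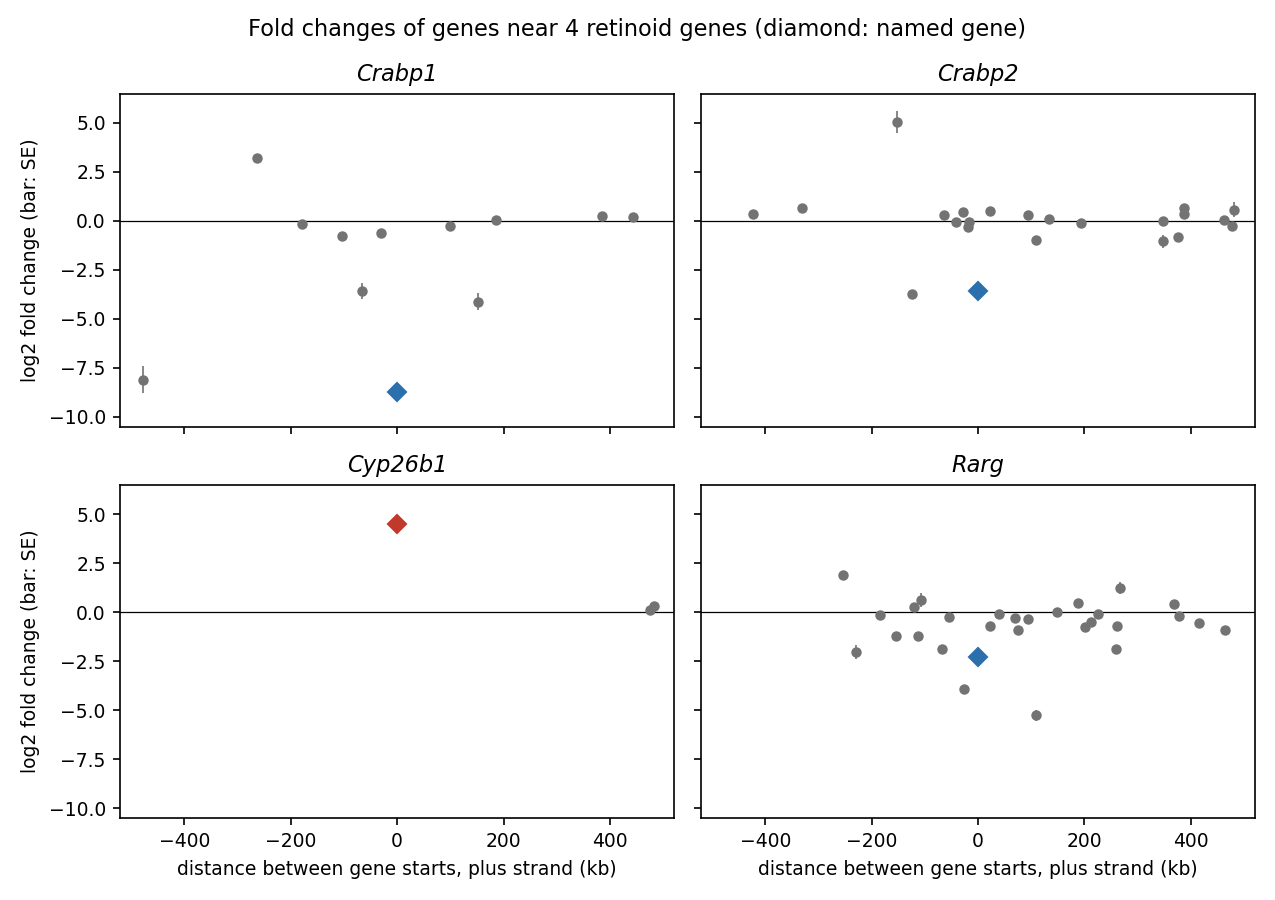
Log2 fold changes (null over wild type label, bars are SE) of tested genes by the distance of their starts from those of Crabp1, Crabp2, Cyp26b1 and Rarg (diamonds), in kilobases along the plus strand. Gldn lies near the level of Crabp1 at -8.10, the neighbours of Cyp26b1 lie at 0.12 and 0.29, and the 28 neighbours of Rarg have a median of -0.45.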

How the data were processed

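Each library had 1 file of raw read counts per Ensembl gene, deposited by the authors. Per the file headers, these counts were made with featureCounts 1.6.2 over exons of a filtered Ensembl 83 annotation of GRCm38 (mm10), with no option set for strand, multimapping or overlap between genes. The submitters' processing notes also name Subread 1.6.2, featureCounts 1.2.6, FastQC 0.11.2 and Trimmomatic 0.33. Symbols were matched by identifier for 46488 genes (98.9%).

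Groups came from the titles. In edgeR 4.0.16 under R 4.3.3, filterByExpr kept 15199 genes, TMM gave the library scaling, and a robust quasi-likelihood F-test without covariates gave p-values, adjusted by Benjamini and Hochberg over all genes tested. The SE is the log2 fold change over the square root of F. CPM uses TMM-scaled library sizes. Ratios of low counts have exact binomial 95% intervals, which cover counting error only. None of the members shared exonic bases with another gene. The fit was tested on simulated data. Within a group, the chi-square of counts per degree of freedom was 1.47 to 2.14, so no libraries were merged.

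The members and lists were chosen with earlier results of these data known. Named were the 9 members and Sphk2. From each pathway list, up to 4 genes past an adjusted p of 0.05 and averaging 1 or more on the log2 CPM scale, by size of change, were named, as were Rxra, Rxrb, Rxrg, Cyp26a1, Cyp26c1 and the 3 genes closest to Crabp1. Thy1, Vim, Krt8, Krt18, Hand1, Eomes, Gata3, Sox2, Nes, Map2, Gata4, Gata6, Afp, Pecam1, Cdh5, Csf1r, Cd14, Cd68, Zfp42, Dppa5a, Epcam, Cdh1, Cdx2, Prl3d1, Aldh1a7, Ppard, Lrat, Ncor1, Nrip1, Adh5, Wdr61, Gldn, Hykk, Dnaja4, Dmxl2 and Hoxd4 were named after their values were seen. Some genes of the lists enter the counts and are not reported here by name. Alternatives were median-of-ratios factors, DESeq2 1.42.0, limma-voom (limma 3.58.1), other filters on low counts, a replicate block, an adjusted p under 0.01 and leaving out each library.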

Additional observations from a re-analysis of the deposited data

How the results depend on the processing

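All 7 tested members kept their direction and their call in all 83 values computed under the alternatives. Rarb did not pass a filter of over 1 CPM in 3 libraries and has no value there. The counts of members called, 2 higher and 5 lower, ran from 2 to 3 and from 4 to 6 over the alternatives. Over all genes, 5206 to 6011 were called higher and 5798 to 7303 lower. With each library left out in turn, the counts were 5641 to 5697 higher and 6108 to 6251 lower. Without a filter on low counts, Aldh1a1 had a log2 fold change of 3.08 (edgeR adjusted p = 0.0141) and Aldh1a2 of -4.07 (edgeR adjusted p = 0.0362), on 12 and 6 counts in all. Of 527 values of the 44 other pathway genes, 519 kept their call, 7 lost it and 1, Hoxd4 without wild-type-labelled replicate 2, gained it, and none reversed. The cause of the 7 losses was not tested. Without null-labelled replicate 2, which holds the only count of its group, the fitted log2 fold change of Hoxa5 was -10.92, against -9.00 with it. Both depend on the prior count.

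No label says that libraries with the same replicate number pair. Deviations of same-numbered libraries from their group means correlated at -0.0028 to 0.018 across genes. Such values do not show whether same-numbered libraries were grown or prepared together. With the replicate block, 5765 genes were called higher and 6238 lower, and the calls of all 7 members were unchanged. Depth limits what can be said of Aldh1a1, Aldh1a2 and Cyp26a1, which had 5 or more counts in at most 2 libraries.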
